A study of Rattus norvegicus with 18 samples.

Results

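The spinal cord of rats at 30 months was compared with the spinal cord of rats at 6 months, the oldest and the youngest ages of a study of ageing in the cord and the oculomotor nucleus. The comparison rests on 6 of the study's 18 arrays, namely the 3 whose titles give cord at 30 months and the 3 whose titles give cord at 6 months, and it takes in every gene on the array. Of the other arrays, 3 hold cord at 18 months and 9 hold the oculomotor nucleus, the midbrain cell group that moves the eye, at the same 3 ages. Age is the only difference between the cord groups that the labels give. RNA of 4 animals was pooled for each array, per the study's design text, so the spread between arrays is a spread between pools and not between single rats. The strain, F344BN, stands in the descriptions of 2 oculomotor samples that name both tissues. Sex, the level of the cord and any treatment are not given in the sources used here. Nothing states that the pools of an age were collected separately, so p-values measure only the spread between these pools, which may be technical.

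Microglia are the resident macrophages of the spinal cord; they survey the tissue, take up debris by phagocytosis, make complement, and can display peptides to CD4 T cells on class II molecules of the major histocompatibility complex, which are dimers of an alpha and a beta chain. Myelin, which fills the white matter of the cord, is rich in cholesterol. Since plasma cholesterol does not cross the blood-brain barrier, neural cells build it themselves from acetyl-CoA, by way of mevalonate, squalene and a chain of sterol intermediates.

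Each array carried 15923 probe sets, groups of short oligonucleotides that together report on a transcript, and gave each a signal, an intensity on a linear scale. Signals under 66.4 were raised to that floor, log2 was taken, and 9482 probe sets passed a filter on mean signal. A probe set was called changed where limma's adjusted p (Benjamini-Hochberg over the 9482) was under 0.05. Levels below are signals of single arrays in the order of replicates 1, 2 and 3, changes are differences of mean log2 signal (30 minus 6 months) with their standard error (SE), and each group had n = 3. A tissue holding fewer cells of a type and one with less RNA per cell cannot be told apart in such pools.

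Marker genes told the cord arrays from the oculomotor arrays, but they do not show that the latter hold the oculomotor nucleus alone. Hoxa5, a patterning gene of the hindbrain and cord, gave 750 to 1097 on the 9 cord arrays and 8.30 to 108 on the oculomotor arrays. Chat, which makes acetylcholine in motor neurons, gave 316 to 438 in the cord and 96.8 to 191 in the oculomotor nucleus. Th, the marker enzyme of dopamine neurons of the midbrain, gave 55.4 to 138 in the cord against 1882 to 2893. Of 18 lymphocyte and plasma cell genes, 2 lay under the floor on every cord array, the T cell gene Cd3d and the B cell gene Cd79b; the T cell genes Cd3e and Cd8a were over it on 2 and 1 of the 9 cord arrays, reaching 81.1 and 74.0. In that list 3 genes were tested and 0 were called by limma (1 had an unadjusted p under 0.05, the T helper and macrophage gene Cd4, with a change of 0.41 and an adjusted p of 0.463). Hbb, a globin of red blood cells, ranged from 8710 to 17852 over the cord arrays with no separation by age.

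Transcripts of skeletal muscle were high in some cord pools and low in others. Acta1, the actin of the muscle sarcomere, read 2008, 3631 and 253 in the 6-month pools, 276, 1529 and 503.5 in the 18-month pools and 296, 344 and 321 in the 30-month pools. Ckm, the creatine kinase of muscle, read 680, 1227 and 111 in the 6-month pools, 115, 688 and 277 in the 18-month pools and 152, 141 and 179 in the 30-month pools. Replicates 1 and 2 at 6 months and replicate 2 at 18 months were thus high, while replicate 3 at 6 months lay with the 30-month arrays, and the 2 ages overlapped for both genes. Atp2a1, the calcium pump of fast muscle fibres, was likewise highest on replicates 1 and 2 at 6 months, with 898, 1978 and 182 against 105, 148 and 129 at 30 months, though here the ages did not overlap. Myl11, a myosin light chain of fast fibres, gave 426, 1243 and 9.90 at 6 months and 12.1, 53.1 and 58.0 at 30 months, where values under the floor have no order. The signals of 60 muscle genes summed to 18919, 29149 and 12009 at 6 months and to 11064, 11774 and 11619 at 30 months. Some members were also bright on the oculomotor arrays, such as Myh1 (1852 to 2465 there), Fhl1 (1719 to 2058) and Pvalb (951 to 1382). The sums are thus no measure of muscle RNA alone. Acta1 and Ckm read 231 to 437 and 93.4 to 163 on the oculomotor arrays. Of the 60, 25 were higher on replicates 1 and 2 at 6 months than on replicate 3 and on each 30-month array; Myh1 (2602, 2177 and 2798, then 2215, 2745 and 2822) was among those that were not. Of the 60, 11 passed the filter and 0 were called (6 had an unadjusted p under 0.05). Their log2 changes ranged from -2.44 to 0.04, with Atp2a1 at -2.44 ± 0.63 (adjusted p = 0.12), Acta1 at -1.94 ± 0.65 (adjusted p = 0.25), Ckm at -1.53 ± 0.61 (adjusted p = 0.366), Tnnc2, a troponin of fast fibres, at -0.86 ± 0.30 (adjusted p = 0.267) and Pdlim3, a protein of the sarcomere's Z line, at -0.49 (adjusted p = 0.35). For Acta1 and Ckm the sign of that difference rests on replicates 1 and 2 at 6 months. Without the muscle-rich arrays the changes were 0.34 and 0.49. With the mean log2 signal of the 11 tested muscle genes as a covariate they were 0.18 and 0.43. Both genes are among those 11, and the arrays left out were chosen by their muscle signal, so neither fit is an independent check. Myh1, Fhl1 and Pvalb are also among the 11, so the covariate includes genes that were bright on the oculomotor arrays.

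**Figure D1:**
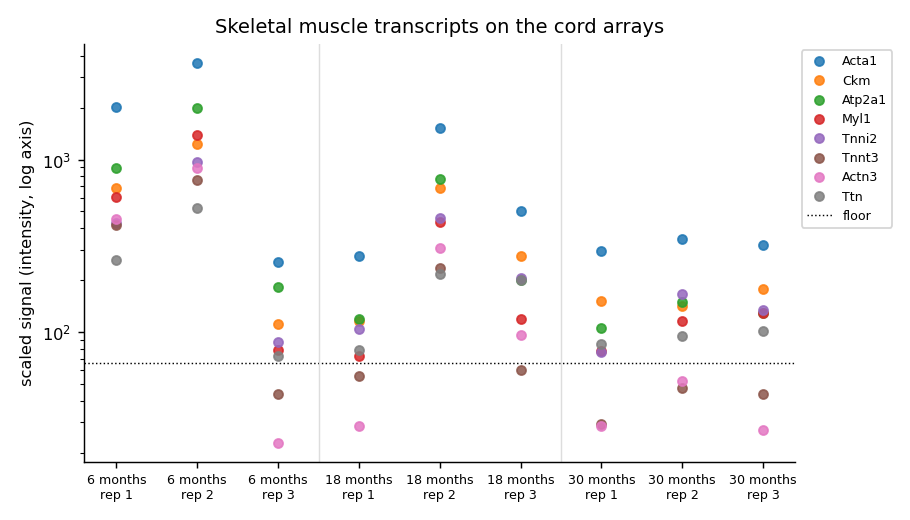
Scaled signal (intensity, log axis) of 8 skeletal muscle genes on the 9 cord arrays, ordered by age and replicate, with the floor of 66.4 dotted. Replicates 1 and 2 at 6 months and replicate 2 at 18 months stand above the rest, and the 30-month arrays lie with replicate 3 at 6 months.

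A second set of arrays stood apart in a different way. On the first principal component of the deviations from group means, which held 27.1% of their variance, cord replicate 1 at 6 months scored -12.1, replicate 3 at 18 months -13.8 and replicate 3 at 30 months -14.7, together with 1 oculomotor array at 30 months (-16.6). The other cord arrays scored between 3.19 and 9.01. Deviations from a group mean cancel within the group, so these positive scores follow from the low array of each group. Another oculomotor array at 30 months scored 14.2, in the other direction.

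Genes that rose in the cord by 30 months included those of class II antigen presentation, phagocytes and complement, and genes that fell included enzymes that supply acetyl units and make sterols. In all, 21 of 9482 probe sets were called (0.221%), 16 higher (0.169%) and 5 lower (0.0527%), naming 14 and 5 genes. The signals at 6 and 30 months did not overlap for any of the 21; 13.1% of all probe sets tested had no overlap. The rises ran from 1.49-fold to 3.27-fold and the falls from 1.47-fold to 1.70-fold. The calls depended on single pools: without replicate 3 at 30 months limma made 0 (769 probe sets had an unadjusted p under 0.05). Without replicate 1 at 30 months there were 13, of which 12 were among the 21. Without replicate 3 at 6 months there were 43, of which 15 were among the 21. All 21 kept their direction each time. Limma also made 0 calls with the 9 cord arrays only and with the 6 compared arrays only (815 and 652 at an unadjusted p under 0.05). It made 0 as well with the mean log2 signal of the 11 tested muscle genes as a covariate (922). None of the 21 changed direction in these fits. Replicate 3 was the highest of the 30-month arrays for 16 of the 16 rising probe sets, against 36.7% of all those tested, and exceeded the mean of the other pair by a median of 0.57 log2 units, against -0.00 for the falling ones and -0.01 overall. On that array the 3′ to 5′ signal ratios of the control probe sets for hexokinase and beta-actin, which rise as RNA breaks down, were the highest of the 9 cord arrays, at 2.19 and 1.40; the other 8 ranged from 1.66 to 2.12 and from 0.98 to 1.28. For Gapdh the ratio was 1.08, within the range of the others, and the part of RNA quality in the rises was not tested.

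**Figure D2:**
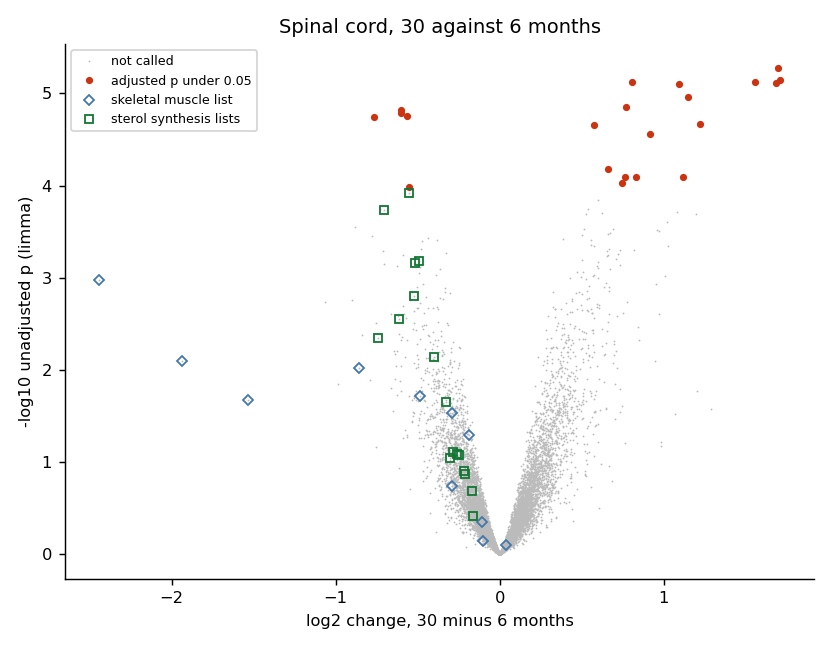
Log2 change from 6 to 30 months in the cord (x) against -log10 of limma's unadjusted p (y) for 9482 probe sets, with the 21 called in red, the 11 tested skeletal muscle genes as blue diamonds and the 17 sterol synthesis genes as green squares. The sterol genes all lie left of 0, and 4 muscle genes (Atp2a1, Acta1, Ckm and Tnnc2) lie far to the left with modest p-values while the other 7 lie nearer 0.

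Class II genes were among the largest rises. RT1-Bb, the beta chain of the rat RT1-B class II molecule (probe set 1371033_at), gave 233, 459 and 395 at 6 months and 826, 966 and 1854 at 30 months. Every old pool was above every young pool, and the change of 1.71 ± 0.28 (adjusted p = 0.0127) equals 3.27-fold. RT1-Db1, the beta chain of RT1-D (1370383_s_at), rose by 1.56 ± 0.25 (adjusted p = 0.0127), from 305, 414 and 266 to 692, 793 and 1560. RT1-Da, the alpha chain of RT1-D (1370883_at), was already abundant at 6 months, with 1135, 1320 and 1401, and reached 2103, 2787 and 3927, a rise of 1.15 ± 0.19 (adjusted p = 0.0142). The partner chain RT1-Ba moved in the same direction without passing the threshold, with 651, 334 and 674 at 6 months and 1045, 1128 and 1502 at 30 months (change 1.20 ± 0.26, adjusted p = 0.0643). Of the 10 genes of the class II list that passed the filter, 9 had positive changes, 3 were called and the median was 0.69. Over all probe sets tested the median was 0.00, 50.4% were positive and 0.221% were called. Over the 18 matched lymphocyte genes the summed signal ran from 3253 to 3609 on the young arrays and from 3146 to 3250 on the old ones. It was thus not higher at 30 months. Only 3 of the 18 passed the filter, so the sum cannot show whether lymphocytes changed. A second probe set of RT1-Bb gave 45.5 and 44.5 on average at 6 and 30 months and one of RT1-Db1 gave 34.4 and 141, both too low to be tested. The suffix of the RT1-Db1 probe set marks probes that can match more than 1 transcript, so closely related class II genes may contribute to it.

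Class II promoters carry a conserved Y box, a CCAAT element that binds the factor NF-Y, and the promoters of the 4 chains are shown because 3 of these 4 genes were called. The sequences are those of RefSeq on GRCr8, 250 bases before to 50 after the gene's start, 5′ to 3′ on the gene's strand, with the Y box CTGATTGG in capitals. RT1-Da lies at chr20:4515165-4515464 on the plus strand, RT1-Db1 at chr20:4560113-4560412 on the minus strand, RT1-Ba at chr20:4576807-4577106 on the plus strand and RT1-Bb at chr20:4604069-4604368 on the minus strand.
RT1-Da: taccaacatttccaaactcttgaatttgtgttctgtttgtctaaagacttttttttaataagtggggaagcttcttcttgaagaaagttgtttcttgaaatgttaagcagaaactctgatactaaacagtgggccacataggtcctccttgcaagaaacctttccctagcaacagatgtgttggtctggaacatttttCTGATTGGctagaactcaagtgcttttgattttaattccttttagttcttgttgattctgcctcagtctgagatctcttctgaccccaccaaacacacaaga
RT1-Db1: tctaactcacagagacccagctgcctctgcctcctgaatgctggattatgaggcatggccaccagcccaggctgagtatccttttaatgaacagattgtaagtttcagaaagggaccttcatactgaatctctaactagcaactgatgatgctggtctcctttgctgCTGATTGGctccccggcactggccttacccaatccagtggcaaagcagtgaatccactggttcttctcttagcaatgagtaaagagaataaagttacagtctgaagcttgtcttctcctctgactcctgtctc
RT1-Ba: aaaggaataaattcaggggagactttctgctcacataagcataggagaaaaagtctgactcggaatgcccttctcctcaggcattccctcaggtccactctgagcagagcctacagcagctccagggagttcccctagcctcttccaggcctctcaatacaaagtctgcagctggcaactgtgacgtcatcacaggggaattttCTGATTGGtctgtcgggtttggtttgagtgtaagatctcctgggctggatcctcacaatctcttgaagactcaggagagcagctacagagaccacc
RT1-Bb: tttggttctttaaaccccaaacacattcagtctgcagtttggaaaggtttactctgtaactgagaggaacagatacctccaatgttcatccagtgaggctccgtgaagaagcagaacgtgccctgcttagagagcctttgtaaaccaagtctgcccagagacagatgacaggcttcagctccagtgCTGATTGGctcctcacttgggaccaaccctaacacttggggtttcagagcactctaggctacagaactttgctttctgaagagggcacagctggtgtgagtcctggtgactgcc
The box begins at -52, -83, -46 and -64 relative to the start in RT1-Da, RT1-Db1, RT1-Ba and RT1-Bb, each time on the gene's own strand. Searched on both strands, CTGATTGG was in 4 of these 4 promoters and in 3.50% of 33469 promoters of the same length. Among the 14 genes that rose, 10 had a promoter in the table, and the box was in 3 of them, the class II genes RT1-Bb, RT1-Da and RT1-Db1. A match of letters describes the window and shows neither binding nor a cause.

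**Figure D3:**
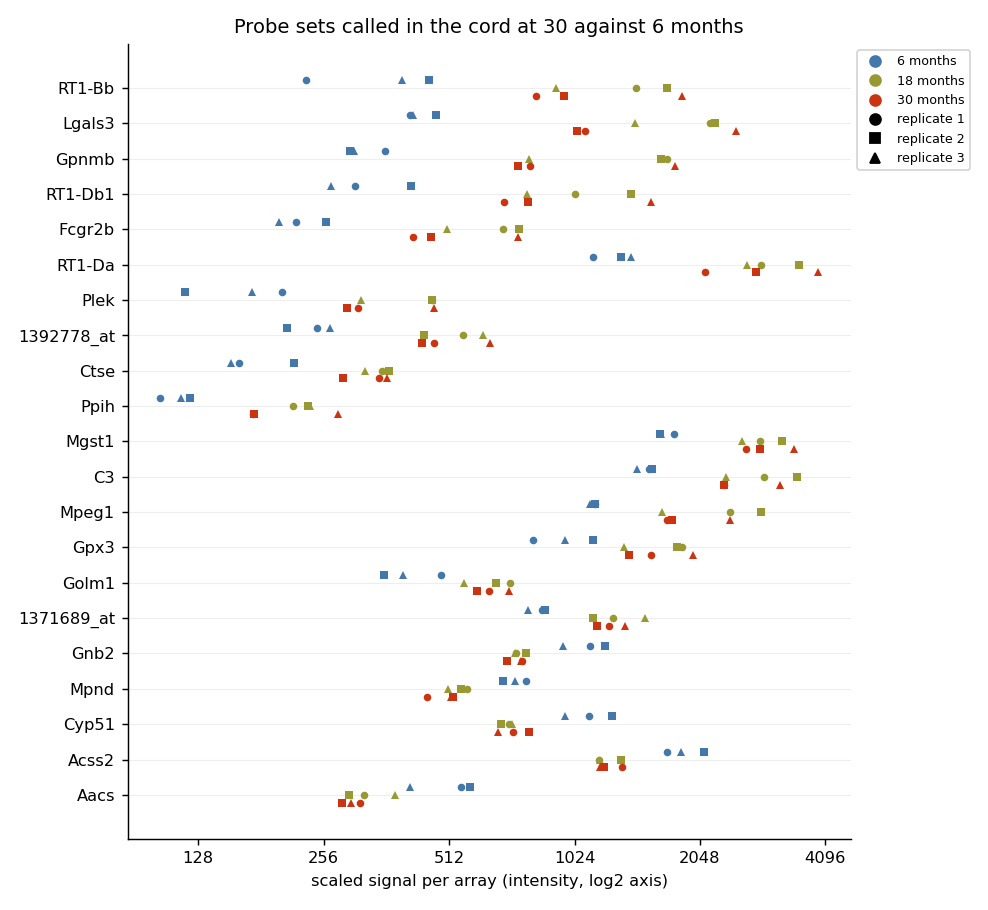
Scaled signal on each of the 9 cord arrays (log2 axis) for the 21 called probe sets, coloured by age, with a different symbol for each replicate. Rising probe sets are above and falling ones below; among the 30-month points the triangle (replicate 3) lies furthest right for every rising probe set, and the 18-month points lie on the same side of the 6-month points as the 30-month ones.

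Genes of phagocytes that take up lipid and debris came next. Lgals3, the galactose-binding lectin galectin-3 that activated macrophages make, gave 412, 475 and 419 at 6 months and 1085, 1035 and 2501 at 30 months. Gpnmb, a membrane glycoprotein of lipid-laden macrophages, gave 359, 296 and 302 and then 800, 748 and 1788. In both genes the young pools were tight, the old pools spread widely, and the lowest old pool was still more than any young pool. The changes were 1.70 ± 0.27 for Lgals3 and 1.69 ± 0.28 for Gpnmb (both adjusted p = 0.0127); without replicate 3 at 30 months they were 1.29 and 1.28 (both adjusted p = 0.0856). Ctse, an aspartic protease of endosomes, rose by 0.91 ± 0.17 (adjusted p = 0.0173), from 160, 218 and 153 to 347, 285 and 363, and here the old pools lay close together. Mpeg1, which codes for the pore-forming perforin-2 of macrophages, gave 1148, 1145 and 1115 at 6 months and 1707, 1752 and 2412 at 30 months, a rise of 0.77 ± 0.15 (adjusted p = 0.0407). Its second, dimmer probe set changed by 0.85 (adjusted p = 0.209). With Mgst1, described below, 5 of 17 tested genes of the phagocyte list were called, against 0.221% of all probe sets. The lists were chosen with earlier results of these data known, so this count is no independent evidence. Of the 17, 12 were positive and the median was 0.16. The 5 negative members were Spp1 (-0.17), Lgals1 (-0.17), Axl (-0.15), Cd9 (-0.11) and Apoe (-0.06).

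A receptor for antibody and a myeloid signalling protein also rose. Fcgr2b, the inhibitory receptor for the Fc part of immunoglobulin G, rose by 1.22 ± 0.22 (adjusted p = 0.0148), from 220, 260 and 200 to 420, 462 and 747. Plek, the pleckstrin of blood and myeloid cells, rose by 1.12 ± 0.22 (adjusted p = 0.0407), from 204, 119 and 172 to 310, 292 and 471. Neither gene's ages overlapped. Fcer1g, the shared signalling chain of activating Fc receptors, had 1743, 2057 and 1808 at 6 months and 2393, 2518 and 3199 at 30 months and missed the threshold (change 0.52 ± 0.11, adjusted p = 0.0643). Fcgr3a, an activating receptor, changed by 0.39 ± 0.16 (adjusted p = 0.366). Of the 13 tested members of the Fc receptor and myeloid signalling list, 2 were called and 11 were positive, with a median of 0.25.

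C3, the central complement protein from which all 3 activation routes continue, gave 1541, 1573 and 1447 at 6 months and 2334, 2339 and 3188 at 30 months. The young pools differed little and the old pools all exceeded them, for a rise of 0.77 ± 0.13 (adjusted p = 0.0142), or 1.71-fold. C1qa and C1qb, chains of the C1q recognition molecule made by microglia, changed by 0.51 ± 0.16 (adjusted p = 0.209) and 0.51 ± 0.22 (adjusted p = 0.41), and C1s, a protease of the same complex, by 0.70 ± 0.22 (adjusted p = 0.219). Of the 8 complement genes tested, 8 were positive, 1 was called and the median was 0.47. Of the 15 members with a probe set, the other 7 were too dim to be tested.

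Most microglial identity genes had positive changes, but no member passed the threshold. Of 18 tested genes, 17 had positive changes, 13 of them at an unadjusted p under 0.05 (5.97% of all probe sets rose at that level), 0 were called and the median was 0.46. Cd53, a tetraspanin of leukocytes, gave 439.5, 363 and 453 at 6 months and 605, 591 and 819 at 30 months (change 0.67 ± 0.15, adjusted p = 0.0828). P2ry12, the nucleotide receptor of resting microglia, gave 787, 594 and 721 and then 859, 919 and 1296 (change 0.53 ± 0.14, adjusted p = 0.138). The ages did not overlap for either gene. Tgfbr1, a receptor for the factor that maintains microglia, changed by 0.54 ± 0.14 (adjusted p = 0.132), while the marker Cx3cr1, the fractalkine receptor, had overlapping signals of 437, 342 and 368 and of 430, 351 and 478. The 20 matched members summed to between 15240 and 17307 on the young arrays, 22020 and 25274 at 18 months, and 18695 and 27701 on the old arrays, the last range ending with replicate 3. The summed microglial signal thus moved with the class II, phagocyte and complement genes, but the lists share members. C1qa, C1qb and C1qc are also in the complement list, Ctss in the class II list and Tyrobp in the phagocyte list. The sum is therefore not separate from those groups, and its part in their changes was not tested.

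Further immune lists were those of class I presentation, interferon and the lysosome. In the class I and immunoproteasome list 11 of 14 tested genes were positive (median 0.14), led by Psmb8, an immunoproteasome subunit (0.61 ± 0.17, adjusted p = 0.156), and Psme1, part of the proteasome activator PA28 (0.50 ± 0.14, adjusted p = 0.142). In the interferon response list 12 of 16 were positive (median 0.17), with 4 at an unadjusted p under 0.05. The lysosome and cathepsin list held 22 positive genes of 32 (median 0.10); besides Ctse its smallest p was that of Grn, the lysosomal growth factor progranulin, with 729, 914 and 1028 at 6 months and 1265, 1201 and 1549 at 30 months (0.59 ± 0.15, adjusted p = 0.104).

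**Figure D4:**
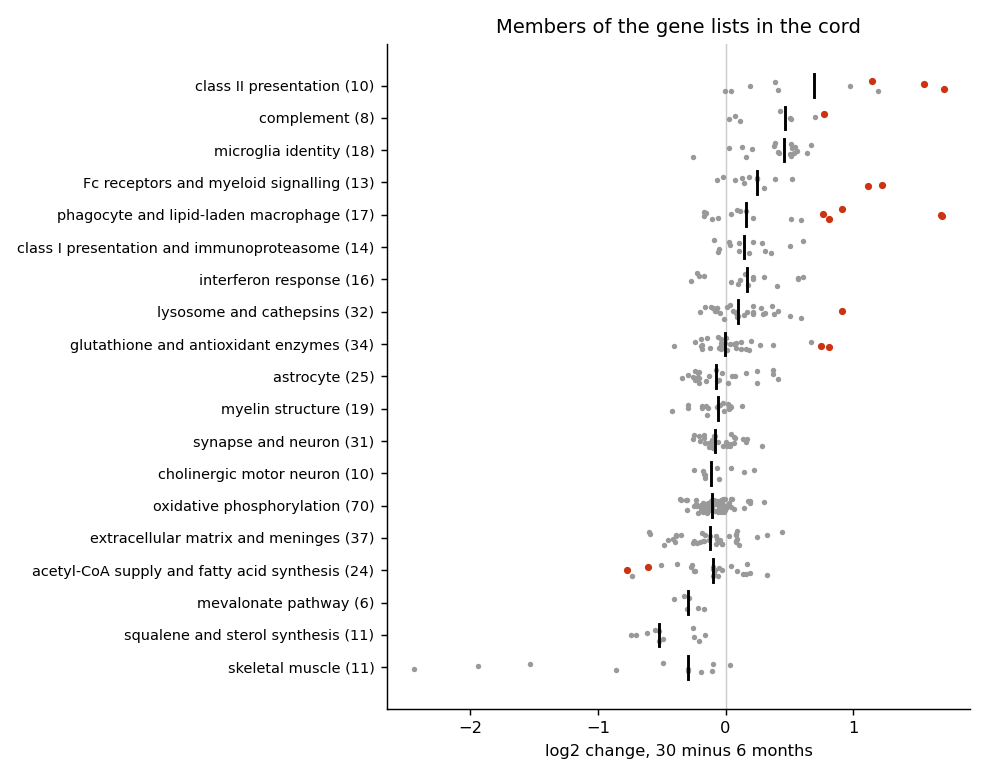
Log2 change from 6 to 30 months in the cord for the tested members of 19 gene lists (number in brackets), each point a gene, red where called, with the median of the list as a black bar. Class II, complement and microglia lists sit to the right of 0, the sterol lists lie wholly to its left, and the muscle list has the longest left tail.

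Enzymes that handle oxidants and a few genes of other kinds completed the rises. Mgst1, a membrane-bound glutathione S-transferase of the endoplasmic reticulum and mitochondria, gave 1778, 1639 and 1654 at 6 months and 2645, 2846 and 3446 at 30 months. Gpx3, a secreted glutathione peroxidase, gave 812, 1137 and 971 and then 1560, 1384 and 1966. Both separated by age, with changes of 0.81 ± 0.13 (adjusted p = 0.0127) and 0.75 ± 0.15 (adjusted p = 0.0443). They were the 2 calls of their class, since the 34 tested genes of glutathione and antioxidant defence split into 17 positive and 17 negative, with a median of -0.00. Gsta1, a cytosolic glutathione transferase, changed by 0.67 ± 0.18 (adjusted p = 0.132) and Gstm5, of another class, by -0.41 ± 0.12 (adjusted p = 0.196). Ppih, a cyclophilin of the splicing machinery, rose by 0.83 ± 0.17 (adjusted p = 0.0407), from 104, 122 and 116 to 173, 174 and 277. It was the 1 call among 35 tested chaperone and heat shock genes, whose median was 0.01. Golm1, a membrane protein of the Golgi, rose by 0.66 ± 0.13 (adjusted p = 0.039), from 491, 356 and 398 to 640, 598 and 714, and its second probe set changed by 0.66 (adjusted p = 0.0906). The 2 called probe sets that carry no gene name here, 1392778_at and 1371689_at, rose by 1.09 ± 0.18 and 0.58 ± 0.10.

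Of the 5 genes that fell, 3 make sterols or the acetyl units that feed lipid synthesis. Cyp51, the lanosterol demethylase of cholesterol synthesis (1387020_at), gave 1112, 1258 and 970.5 at 6 months and 728, 796 and 672 at 30 months. All old pools were below all young ones, and the change was -0.60 ± 0.10 (adjusted p = 0.0142). A second, brighter Cyp51 probe set changed by -0.52 (adjusted p = 0.146). Acss2, which makes acetyl-CoA from acetate in the cytosol and nucleus, fell by 0.60 ± 0.11 (adjusted p = 0.0142), from 1710, 2099 and 1846 to 1328, 1206 and 1177. Aacs, which makes acetoacetyl-CoA from ketone bodies for lipid synthesis, fell by 0.77 ± 0.13 (adjusted p = 0.0142), from 548, 575 and 413 to 312, 284 and 297. The young pool with little muscle RNA, replicate 3, was the lowest of its group for Cyp51 and Aacs but not for Acss2, and it lay above every old pool for all 3 genes. Without the muscle-rich arrays the changes were -0.41, -0.58 and -0.47 for Cyp51, Acss2 and Aacs, with 1 young pool left.

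Other enzymes of sterol synthesis had lower values at 30 months without passing the threshold. Among the 11 tested genes of the squalene and sterol list, 0 had a positive change, 7 were lower at an unadjusted p under 0.05 (4.71% of all probe sets) and the median was -0.52; Cyp51 counted here through its brighter probe set, so the list holds no call. Lss, which closes squalene epoxide into lanosterol, came nearest, with 1193, 1159 and 1076 at 6 months and 853, 740 and 742 at 30 months (change -0.56 ± 0.12, adjusted p = 0.0515). Msmo1, which oxidises the methyl groups that the pathway removes, gave 3980, 4108 and 2920 and then 2202, 2576 and 1950 (change -0.70 ± 0.15, adjusted p = 0.0643). Both genes separated by age. Sqle, the squalene epoxidase, changed by -0.49 ± 0.12 (adjusted p = 0.1) and Sc5d, a sterol desaturase, by -0.52 ± 0.13 (adjusted p = 0.103), also without overlap. Upstream, in the mevalonate list, 6 of 6 tested genes were negative with a median of -0.29; Fdps, which makes farnesyl diphosphate, changed by -0.40 ± 0.13 (adjusted p = 0.239), and Idi1, the isomerase before it, by -0.33 ± 0.13 (adjusted p = 0.37) with overlapping ages.

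The promoter of Lss is shown because it was the sterol gene nearest the threshold; it lies at chr20:12118181-12118480 on the minus strand of GRCr8 (RefSeq), again with CTGATTGG in capitals.
Lss: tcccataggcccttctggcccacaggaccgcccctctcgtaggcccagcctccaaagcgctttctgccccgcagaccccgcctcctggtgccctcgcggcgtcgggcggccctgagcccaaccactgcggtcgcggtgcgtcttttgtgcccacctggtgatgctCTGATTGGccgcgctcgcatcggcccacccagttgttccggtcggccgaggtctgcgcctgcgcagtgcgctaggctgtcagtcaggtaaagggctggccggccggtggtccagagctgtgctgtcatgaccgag
There the box begins at -85. Of the 15 sterol and mevalonate enzymes with a promoter in the table, 5 held CTGATTGG on either strand (Fdps, Idi1, Lss, Mvk and Sc5d). The consensus of the sterol regulatory element, TCACNCCAC, was in 0 of the 15 and in 1.12% of all promoters, and the E box CACGTG was in 1 of the 15, Sc5d, and in 6.42% of all. Among the 5 genes called lower, 4 had a promoter in the table, and 0 of these held CTGATTGG, TCACNCCAC or CACGTG. Absence says only that these letters are not in the window.

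Genes of sterol sensing did not share the direction. Srebf1, a transcription factor of lipid synthesis, gave 788, 821 and 881 at 6 months and 973, 1037 and 1273 at 30 months (change 0.39 ± 0.12, adjusted p = 0.202). Insig1, which retains that factor in the endoplasmic reticulum, changed by -0.38 ± 0.18 (adjusted p = 0.463), and the 8 tested genes of the list were 4 positive and 4 negative. In the acetyl-CoA and fatty acid list, 2 of 24 tested genes were called, both lower, 17 were negative and the median was -0.10. Scd, the desaturase that makes monounsaturated fatty acids, gave 861, 1054 and 681 and then 522, 552 and 468 (change -0.73 ± 0.16, adjusted p = 0.0643), and Thrsp, a protein of lipid-making tissues, changed by -0.51 ± 0.13 (adjusted p = 0.132).

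The last pair of falls lay outside the lists. Mpnd, a protein with an MPN domain, gave 782, 691 and 739 at 6 months and 453, 524 and 517 at 30 months, a fall of 0.57 ± 0.10 on the log2 scale (adjusted p = 0.0142). Gnb2, a beta subunit of heterotrimeric G proteins, gave 1117, 1210 and 961 and then 765, 705 and 763 (change -0.55 ± 0.11, adjusted p = 0.0472). Both separated by age, but a second and brighter Gnb2 probe set changed by 0.16 (adjusted p = 0.712), so the 2 probe sets of this gene disagree.

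Lists for neurons, glia and energy metabolism held no call. Among 19 tested myelin genes 13 were negative (median -0.06); Mog, a protein of the outer myelin surface, gave 3884, 4176 and 3636 and then 2860, 3203 and 3516 (change -0.29 ± 0.10, adjusted p = 0.267). The 10 tested genes of the oligodendrocyte lineage had a median of 0.12. Astrocyte genes had a median of -0.07 over 25, and the intermediate filament Gfap gave overlapping signals of 11091, 10553 and 14116 and of 10092, 9431 and 12645. Of 10 tested motor neuron genes 3 were positive (median -0.12), and Chat was 326, 437 and 338 against 404, 380 and 342. Synaptic and general neuronal genes had a median of -0.08 over 31, and Snap25, a protein of synaptic vesicle fusion, changed by -0.25 (adjusted p = 0.63). Genes of dopamine, noradrenaline and serotonin neurons were negative in 10 of 12 cases (median -0.22). Ddc, the decarboxylase shared by these transmitters, gave 575, 502 and 555 and then 371, 441.5 and 444 (change -0.38 ± 0.14, adjusted p = 0.311). Some members were dim in the cord, such as Th, at 55.4 to 138 against a floor of 66.4, and Slc6a3, at 112 to 174. The filter took the mean of all 18 arrays, so these genes passed it through the oculomotor arrays (1882 to 2893 and 1219 to 1735). The count of 10 of 12 and its median include them. Whether the fibres that reach the cord from the brainstem changed was not tested. Subunits of oxidative phosphorylation were negative in 58 of 70 cases, with small sizes: the median was -0.11 and the smallest p was that of Atp5f1d, a subunit of ATP synthase (-0.35 ± 0.09, adjusted p = 0.15).

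Among genes of neighbouring tissues other than muscle, none was called. Of 37 tested matrix and meningeal genes 26 were negative (median -0.12), 7 at an unadjusted p under 0.05; Col6a1, a chain of collagen VI, gave 366, 531.5 and 438 at 6 months and 315, 286.5 and 277 at 30 months (change -0.59 ± 0.14, adjusted p = 0.0934), and Col1a1, a chain of collagen I, changed by -0.60 ± 0.23 (adjusted p = 0.338). Timp2, a metalloproteinase inhibitor in the same list, changed by 0.44 ± 0.12 (adjusted p = 0.15). The summed signal of the 48 matched members was 40865 to 52366 at 6 months and 38100 to 44520 at 30 months. Schwann cell and nerve root genes summed to 21108 to 32727 and to 19915 to 24868, and their 7 tested members had a median of -0.11. The 9 matched adipose genes, which include Scd, summed to 1519 to 1962 and to 1079 to 1395, so that the ages did not overlap. Only 1 of the 9, Scd, passed the filter, and its fall, given above, is part of this separation. The part of these tissues in the changes above was not tested.

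The 18-month cord lies between these ages in time. For all 21 called probe sets the 3 arrays at 18 months also lay outside the 6-month range, on the same side; this uses the same 6-month arrays and is not a second test. Lgals3 gave 2161, 2223 and 1427 at 18 months, Gpnmb 1708, 1648 and 795, and RT1-Bb 1442, 1705 and 923. For each of these genes at least 2 of the 18-month pools were above the lower 2 of the 30-month pools. For 14 of the 16 rising probe sets the mean was higher at 18 than at 30 months, and none of the 21 differed between those ages by limma's adjusted p. The 95% confidence interval for RT1-Bb, 30 minus 18 months, ran from -0.79 to 0.38 log2 units, and that for Mgst1 from -0.23 to 0.32.

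Between 18 and 30 months 1 probe set of 9482 was called (0.0105%). Limk1, a kinase that regulates actin through cofilin, read 557, 574 and 580 in the youngest pools, 330, 308 and 452 in the middle ones and 620, 699 and 667 in the oldest. It was low at 18 months and differed less between the youngest and oldest pools, with a change of 0.88 from 18 to 30 months (adjusted p = 0.0305) and of 0.21 from 6 to 30 months (adjusted p = 0.627).

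In the oculomotor nucleus 17 of the 21 probe sets had a change of the same sign from 6 to 30 months, and 7 were called there too (0.211% of all probe sets were). RT1-Da changed by 1.80 there (adjusted p = 0.00019) against 1.15 in the cord, and C3 by 1.09 (adjusted p = 0.000574) against 0.77. For other probe sets the values there were nearer 0: Lgals3 changed by 0.37 (adjusted p = 0.762), Mgst1 by 0.14 (adjusted p = 0.828), Gpx3 by -0.08 (adjusted p = 0.931) and Aacs by 0.06 (adjusted p = 0.949). The difference between the tissues was tested directly, and 0 of 9482 probe sets passed by limma; 519 had an unadjusted p under 0.05 (5.47%). The cord's change exceeded the oculomotor change by 1.33 for Lgals3 (95% confidence interval 0.52 to 2.13, adjusted p = 0.712) and by 0.83 for Gpx3 (0.38 to 1.28, adjusted p = 0.665). For Aacs the difference was -0.83 (-1.23 to -0.43, adjusted p = 0.635). No gene was shown by this test to change in the cord alone.

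**Figure D5:**
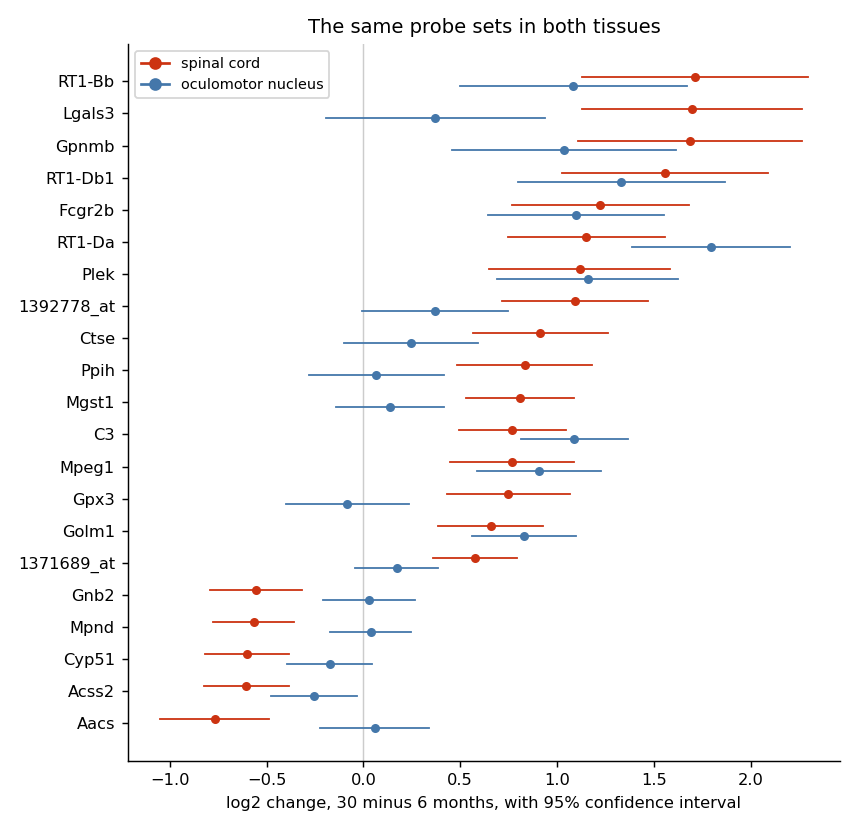
Log2 change from 6 to 30 months with its 95% confidence interval for the 21 called probe sets, in the cord (red) and in the oculomotor nucleus (blue). Of the rising probe sets, RT1-Da, C3, Mpeg1, Golm1 and Plek lie further right in the oculomotor nucleus. Mgst1, Gpx3 and Ppih lie near 0 there, and Lgals3 lies nearer 0 than in the cord.

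A rule close to the study's own, a ratio of group means above 1.70 with no overlap between the pools, picked 33 of the tested probe sets (0.348%), 25 higher (0.264%) and 8 lower (0.0844%), and 14 of the 21 calls were among them. The study's design text also required detection calls and comparisons between single arrays, which were not used here.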

How the data were processed

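The 18 samples were hybridised to Affymetrix RA230 arrays, and the authors summarised the probes with Affymetrix Microarray Suite 5.0 (MAS5), per the submitters' processing notes and the design text. The deposited table gives a linear intensity for every probe set and no detection calls; its arrays share a trimmed mean of about 500.1, a scaling seen in the values and stated nowhere. The design text speaks of 4 independent replicates a group, and the labels, which give 3, were followed.

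Values were rescaled to a common 2% trimmed mean (factors 0.999981 to 1.00002), floored at the pooled 20th percentile (66.4) and put on the log2 scale. The 57 control probe sets were dropped, and 9482 of the other probe sets, with a mean log2 signal above the pooled 40th percentile (7.46), were tested. Names came from the platform annotation with rat gene tables: 12789 probe sets named 1 gene, 312 several (left unnamed) and 2822 none.

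Group means of all 18 arrays were fitted with limma 3.58.1 in R 4.3.3 (empirical Bayes with a trend, 12 residual degrees of freedom, 18.8 with the prior), so the 6 groups share 1 estimate of the spread. The fit was tested on simulated data. Contrasts were cord 30 against 6 months, cord 30 against 18 months, and the cord's change from 6 to 30 months minus that of the oculomotor nucleus. Tests were 2-sided and adjusted by Benjamini-Hochberg. Fold changes are differences of mean log2 signal put back on the linear scale.

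The text names each called probe set with 1 gene, up to 4 members with the smallest p of each list described, and the tissue markers. The 49 gene lists (1430 members, 1152 with a probe set, 826 tested, each by its brightest probe set) and the comparison itself were chosen with earlier results of these data known, and several called genes were placed in lists for that reason, so their counts are no independent evidence. Same-numbered cord arrays of 6 and 30 months did not deviate together (correlations -0.164, 0.0717 and -0.195), so they were not treated as pairs. Alternatives changed the scaling, floor, filter, model and arrays used. The number of arrays limits the precision. Promoters are RefSeq's, on GRCr8.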

Additional observations from a re-analysis of the deposited data

How the results depend on the processing

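The 21 calls between 6 and 30 months in the cord were made with a spread shared by all 18 arrays. By limma they were 0 with the 9 cord arrays only and 0 with the 6 cord arrays only (815 and 652 at an unadjusted p under 0.05). They were also 0 with the mean log2 signal of the 11 tested muscle genes as a covariate (922). They were 7 with array weights and 72 with the 4 arrays that stood apart as a block, which held all 21. Without the 3 muscle-rich cord arrays, which leaves 1 pool at 6 months that is assumed to vary like the other groups, 4 were called (Kdm8, Rtn3, Mtrex and Rnf25, named after their values were seen), none of them among the 21. Leaving out 1 array at a time gave 0 to 43, which held 0 to 15 of the 21. With the replicate block, 2 were called; the numbers do not pair these samples. The count was 15 to 23 under the other 8 alternatives, of which no filter gave 15 (5 higher and 10 lower). Only 5 of the 21 were among the calls with no filter, and 16 with the stricter filter. Over 436 values of the called probe sets under alternatives, 240 stayed past the threshold, 196 did not and 0 changed direction. Among genes named without a call, Acta1 became 0.18 with the muscle covariate and 0.34 without the muscle-rich arrays, Ckm 0.43 and 0.49, and Idi1 0.035 without the muscle-rich arrays. The tissue difference gave 2 probe sets with no filter and 0 to 1 when 1 array was left out. The 1 call between 18 and 30 months was lost (0) under quantile normalization, median centring, the 9 cord arrays only, the replicate block, the muscle covariate, the removal of the muscle-rich arrays and the removal of any 6-month or 30-month cord array (160 to 372 at an unadjusted p under 0.05 by limma), and was joined by others with no filter (5) and array weights (6). The count past 1.70-fold without overlap, 33, was 85 with no filter, 14 with the stricter filter, 154 without the muscle-rich arrays and 43 to 68 with 1 array left out. The cause of these shifts was not tested. Signals have no detection calls, so those near the floor have no order.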

Other observations

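Several gene lists outside the groups described above moved little in either direction. Ribosomal protein genes split into 19 positive and 20 negative of 39 tested (median log2 change -0.00), glutamate transmission genes into 9 and 6 (median 0.01) and the circadian clock list into 6 and 6 (median 0.05). Immediate early genes, which neurons switch on within minutes of activity or handling, were positive in 11 of 13 tested cases (median 0.15), with no call and no member at an unadjusted p under 0.05. Cdkn1a, an inhibitor of the cell cycle that is often followed in senescence, gave 246, 334 and 336 at 6 months and 521, 498 and 422 at 30 months. The ages did not overlap, and the change was 0.66 ± 0.19 (adjusted p = 0.182). In its list, of cell cycle arrest and senescence, 8 of 12 tested genes were negative, the median was -0.02 and 0 were called. Pfkm, the muscle-type phosphofructokinase of glycolysis, changed by -0.33 (adjusted p = 0.0917) in a list where 15 of 19 tested genes were negative (median -0.07).

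Between the called probe sets and the rest lay 40 with an adjusted p from 0.05 to under 0.1, 28 higher and 12 lower. Those nearest the threshold, by adjusted p, were Lss, described above, and Efcab14, with a change of 0.60 ± 0.13 (adjusted p = 0.0585). Slc6a4, the serotonin transporter, had signals of 89.1, 130 and 79.5 at 6 months and of 21.0, 40.2 and 73.5 at 30 months, where 2 pools lay under the floor of 66.4, so its fall has only a bound.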
